A study of Mus musculus with 52 samples.

Results

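The genes followed here were chosen because their reads were more abundant in hypothalamic libraries of insulin-infused mice than of saline-infused mice: Zfp871, Zfhx4, Lcor, Phc3, Uhmk1, Akap10, Rasal2, Xkr4, Col19a1 and Srrm4os. They are 10 of the 46071 genes of the count table, found by the Ensembl identifier of each symbol. The hypothalamic difference between insulin and saline is what chose them, so for these genes it is described without a test. Their tests are kept to the hippocampus and the nucleus accumbens, whose libraries played no part in the choice. The working name for the set calls them low-abundance genes. By read abundance that holds for 6 of them, which lay between the 21.1th (Srrm4os) and 44.7th (Akap10) percentile of the 14139 genes tested in the hypothalamus. The other 4 were above the middle, from Rasal2 at the 76.4th to Uhmk1 at the 98.6th percentile.

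The study infused conscious 3-month-old male C57BL/6J mice through a jugular catheter with saline (basal) or with insulin at 4 mU/kg/min (low) or 12 mU/kg/min (high). Glucose was infused to adjust blood glucose, and after 3 h of this clamp RNA was taken from the whole hypothalamus, hippocampus and nucleus accumbens. All mice shared the strain, sex, age, surgery and clamp time, and no allele was modified. Of the 52 libraries, 16 are hypothalamic (5 basal, 6 low, 5 high), and hippocampus and accumbens have 18 each, with 6 per infusion. The labels do not say which libraries of different regions came from 1 mouse, nor that libraries of a group came from separate mice. The spread between them may therefore be partly technical. Each value below is a level from a whole tissue piece, in which fewer cells of a type and less RNA per cell cannot be told apart.

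Insulin circulating in blood reaches the brain and acts on receptors that signal through PI3 kinase, AKT and the FOXO transcription factors. In the hypothalamus it is known to act on neurons that control feeding and glucose output by the liver. The 10 genes belong to no single pathway of that system. Zfp871 encodes a C2H2 zinc finger protein and Zfhx4 a very large protein with zinc fingers and homeodomains. Lcor encodes a ligand-dependent nuclear receptor corepressor that recruits CtBP proteins and histone deacetylases, and Phc3 a polyhomeotic subunit of Polycomb repressive complex 1. Uhmk1 encodes a kinase known to phosphorylate the splicing factor SF1 and the cell cycle inhibitor p27, Akap10 an anchoring protein for protein kinase A, and Rasal2 a GTPase-activating protein for Ras. Xkr4 encodes a membrane protein of the phospholipid scramblase family, and Col19a1 a collagen of the fibril-associated group that interneurons make. Srrm4os is a non-coding RNA read from the strand opposite Srrm4, a splicing regulator of neuronal microexons.

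The stretches before the transcription starts show how differently these genes begin. RefSeq entries of build GRCm38.p6 were matched for 7 of the 10 symbols; Xkr4, Zfhx4 and Srrm4os had no entry. The 250 bases before the start are printed for the 2 genes with the greatest hypothalamic differences, Zfp871 and Lcor, and for Phc3 and Akap10, which share a motif with Zfp871. Zfp871 has 2 annotated starts, and the outer is shown. Each reads 5′ to 3′ on the strand of its gene, and capitals mark 3 motifs, each searched on both strands. They are the E-box CACGTG, bound by many helix-loop-helix factors, the GC box GGGCGG, bound by SP1 and its relatives, and the CCAAT box, bound by NF-Y. The stretches lie at chr17:32788288-32788537 (minus strand, Zfp871), chr19:41482432-41482681 (plus strand, Lcor), chr3:30969416-30969665 (minus strand, Phc3) and chr11:61930258-61930507 (minus strand, Akap10).
Zfp871: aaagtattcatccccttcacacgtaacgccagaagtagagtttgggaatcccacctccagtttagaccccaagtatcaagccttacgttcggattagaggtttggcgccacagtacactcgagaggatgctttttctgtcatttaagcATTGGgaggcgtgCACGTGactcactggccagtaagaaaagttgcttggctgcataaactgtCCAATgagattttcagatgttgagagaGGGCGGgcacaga
Lcor: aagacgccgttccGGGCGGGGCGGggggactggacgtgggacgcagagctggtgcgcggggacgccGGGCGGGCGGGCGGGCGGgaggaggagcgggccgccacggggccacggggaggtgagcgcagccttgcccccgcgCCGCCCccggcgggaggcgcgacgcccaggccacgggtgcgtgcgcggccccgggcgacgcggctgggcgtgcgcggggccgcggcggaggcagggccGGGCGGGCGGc
Phc3: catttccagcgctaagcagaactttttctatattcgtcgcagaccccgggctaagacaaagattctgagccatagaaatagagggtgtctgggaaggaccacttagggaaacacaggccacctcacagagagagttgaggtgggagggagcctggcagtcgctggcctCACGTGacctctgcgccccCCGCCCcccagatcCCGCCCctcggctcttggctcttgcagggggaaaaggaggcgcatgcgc
Akap10: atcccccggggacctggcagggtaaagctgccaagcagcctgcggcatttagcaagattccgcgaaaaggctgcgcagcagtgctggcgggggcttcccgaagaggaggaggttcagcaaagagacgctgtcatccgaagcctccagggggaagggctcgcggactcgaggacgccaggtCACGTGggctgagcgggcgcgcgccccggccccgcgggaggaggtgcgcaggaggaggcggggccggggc
The 250 bases were 85.2% G or C before Lcor, at the 99.9th percentile of the 32851 RefSeq promoters of that length, and 48.0% before Zfp871, at the 33.8th. The median of all was 52.4%. The E-box letters CACGTG lay 89 bases before the start of Zfp871, 82 before Phc3 and 70 before Akap10, so in 3 of the 9 entries of the 7 matched genes, and in 6.02% of all promoters. A GC box was in 4 of 9 entries (32.7% of all promoters), among them Lcor with overlapping copies. The CCAAT box was in 3 of 9 (33.8% of all). The FOXO motif GTAAACA (3.17% of all) was in 0 of the 9, as was the cyclic AMP response element TGACGTCA (1.55% of all). These matches describe letters and are not shown to be bound sites.

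Libraries differed in composition, and this touches the results that follow. Total counts ran from 2453412 to 8279612. For each library the departure of every tested gene from its regional mean, in log2 CPM (counts scaled to a common library size), was correlated across genes with the GC content of the transcripts, leaving the 10 genes out. This rank correlation, the GC lean, is positive where a library holds more reads of GC-rich transcripts. It was above 0.4 in 9 libraries, and these included 3 of the 5 basal but 0 of the 11 insulin libraries of the hypothalamus. Separately, 5 insulin libraries and 0 basal libraries stood apart by a very high level of Lnpep, an aminopeptidase gene that is none of the 10 but follows them closely. They are hypothalamic low replicate 2, hippocampal high replicates 5 and 6, and accumbens high replicates 4 and 6. They were picked after the values were seen and by a gene that follows the set, so leaving them out lowers the values of the set by construction.

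The hypothalamic dissections also varied. The summed level of 9 peptide markers (Hcrt, Pmch, Avp, Oxt, Pomc, Agrp, Npy, Sst and Trh), none of them at 0 throughout a group, was 996 to 2073 CPM in basal, 73.4 to 1452 CPM in low and 199 to 1242 CPM in high libraries. At least 1 of the first 5 of these was under 1 CPM in 5 insulin and 0 basal libraries. Of the 9 markers, 0 were above basal in mean at either rate, with median log2 fold changes of -1.72 (low) and -1.09 (high) and 0 called. Summed oligodendrocyte markers were 4583 to 8670, 5556 to 12290 and 4671 to 8745 CPM in basal, low and high libraries. Of these 7 markers, 7 were above basal in mean at the low rate (median 0.28, 1 called higher) and 5 at the high rate (median 0.004, 0 called). Summed ependymal and tanycyte markers (Ccdc153, Foxj1, Rax and Vim) were 49.8 to 73.7, 37.4 to 51.8 and 35.6 to 54.2 CPM in the same order, with 0 of the 3 tested above basal in mean at either rate, medians of -0.42 and -0.47, and 1 called lower at the low rate. Summed microglial markers were 95.4 to 144, 103 to 125 and 73.2 to 129 CPM, with 1 of 5 above basal at each rate and medians of -0.27 and -0.53. The part of these cell types, of dissection and of GC lean in the hypothalamic differences was not tested, and values without the libraries concerned are given beside them.

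Zfp871 was the gene with the greatest hypothalamic difference. Its 5 basal libraries held 3.24, 1.52, 3.14, 5.76 and 2.21 CPM. The 6 low libraries held 15.5, 58.8, 25.7, 13.9, 14.6 and 20.1 CPM, and the 5 high libraries 13.8, 12.2, 8.45, 20.8 and 16.5 CPM. Every insulin library was above every basal one, and low replicate 2 was far above the rest. The log2 fold change was 3.07 (SE 0.43) at the low rate, 8.40-fold, and 2.28 (SE 0.44) at the high rate. Behind these levels stood only 10 to 20 counts in each basal library.

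Zfhx4, the homeodomain gene, held 45.8, 43.0, 76.0, 85.9 and 40.3 CPM in basal libraries and 128, 90.7, 121, 101 and 120 CPM in high libraries. Its low libraries lay between 90.3 and 150 CPM with a median of 125 CPM. The groups did not overlap, with log2 fold changes of 1.08 (SE 0.19) and 0.96 (SE 0.20). Basal replicates 3 and 4, the 2 basal libraries without a GC lean above 0.4, were the highest of the 5.

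Lcor, the corepressor gene, was at 1.01, 2.07, 1.26, 4.11 and 1.77 CPM under saline, from 5 to 15 counts. Low libraries lay between 8.11 and 14.8 CPM with a median of 12.2 CPM, all above basal. High libraries held 7.17, 7.74, 2.20, 11.8 and 8.61 CPM, so that high replicate 3 fell within the basal range. The log2 fold change was 2.68 (SE 0.37) at the low and 1.99 (SE 0.39) at the high rate.

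Phc3, the Polycomb subunit gene, held 71.1, 58.4, 93.6, 100.3 and 52.4 CPM under saline and 158, 118, 130, 129 and 119 CPM at the high rate. Low libraries lay between 123 and 194 CPM with a median of 144 CPM. No insulin library reached down to the basal range, and the log2 fold changes were 1.01 (SE 0.17) and 0.81 (SE 0.17).

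Among the signalling genes, Uhmk1 was by far the most abundant. Its basal libraries held 363, 351, 439, 514 and 298 CPM and its high libraries 621, 539, 691, 634 and 577 CPM, with low libraries between 542 and 752 CPM around a median of 662 CPM. The groups did not overlap, yet its log2 fold changes, 0.76 (SE 0.13) and 0.64 (SE 0.14), were the smallest of the 10 at each rate. Akap10 held 12.8, 11.6, 16.8, 14.4 and 12.4 CPM in basal and 24.9, 16.9, 27.9, 21.7 and 22.2 CPM in high libraries, and 22.7 to 37.0 CPM (median 26.9 CPM) in low ones. High replicate 2 stood just above the highest basal library, and the log2 fold changes were 1.06 (SE 0.16) and 0.75 (SE 0.17). Rasal2, the Ras regulator, held 46.2, 43.3, 57.8, 72.8 and 31.2 CPM under saline, 92.9, 81.6, 105, 85.4 and 75.2 CPM at the high rate, and 63.5 to 109 CPM (median 92.7 CPM) at the low rate. One low library of Rasal2 was below the highest basal library, and the log2 fold changes were 0.87 (SE 0.18) and 0.82 (SE 0.18).

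Of the membrane and matrix genes, Xkr4 held 6.48, 4.55, 7.38, 7.81 and 4.42 CPM in basal libraries. Its low libraries lay between 9.76 and 26.5 CPM (median 11.5 CPM), the highest being low replicate 2, and its high libraries held 10.0, 10.1, 6.76, 12.5 and 9.06 CPM. High replicate 3 was within the basal range, and the log2 fold changes were 1.17 (SE 0.27) and 0.68 (SE 0.28). Col19a1 held 3.85, 2.34, 4.71, 5.35 and 1.55 CPM under saline, 8.49, 8.68, 8.28, 7.36 and 14.5 CPM at the high rate, and 6.38 to 15.8 CPM (median 10.9 CPM) at the low rate. Its groups did not overlap, with log2 fold changes of 1.69 (SE 0.31) and 1.45 (SE 0.32).

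Srrm4os held 1.82, 1.65, 2.83, 4.11 and 2.88 CPM in basal libraries, 6.80, 9.85, 12.0, 9.02 and 8.61 CPM in high libraries, and 6.00 to 12.8 CPM (median 8.11 CPM) in low libraries. All insulin libraries were above all basal ones, and the log2 fold changes were 1.80 (SE 0.26) and 1.87 (SE 0.27). It was the only 1 of the 10 whose high rate difference was above its low rate difference. Srrm4, the splicing regulator gene on the opposite strand with which it shares exonic positions, averaged 50.3, 51.2 and 55.5 CPM under saline, low and high insulin, with log2 fold changes of 0.03 (SE 0.13) and 0.14 (SE 0.13). The libraries were made with a stranded kit, but the counting setting for strand is not given in the sources used here, so reads of the overlap may be shared between the pair.

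**Figure D1:**
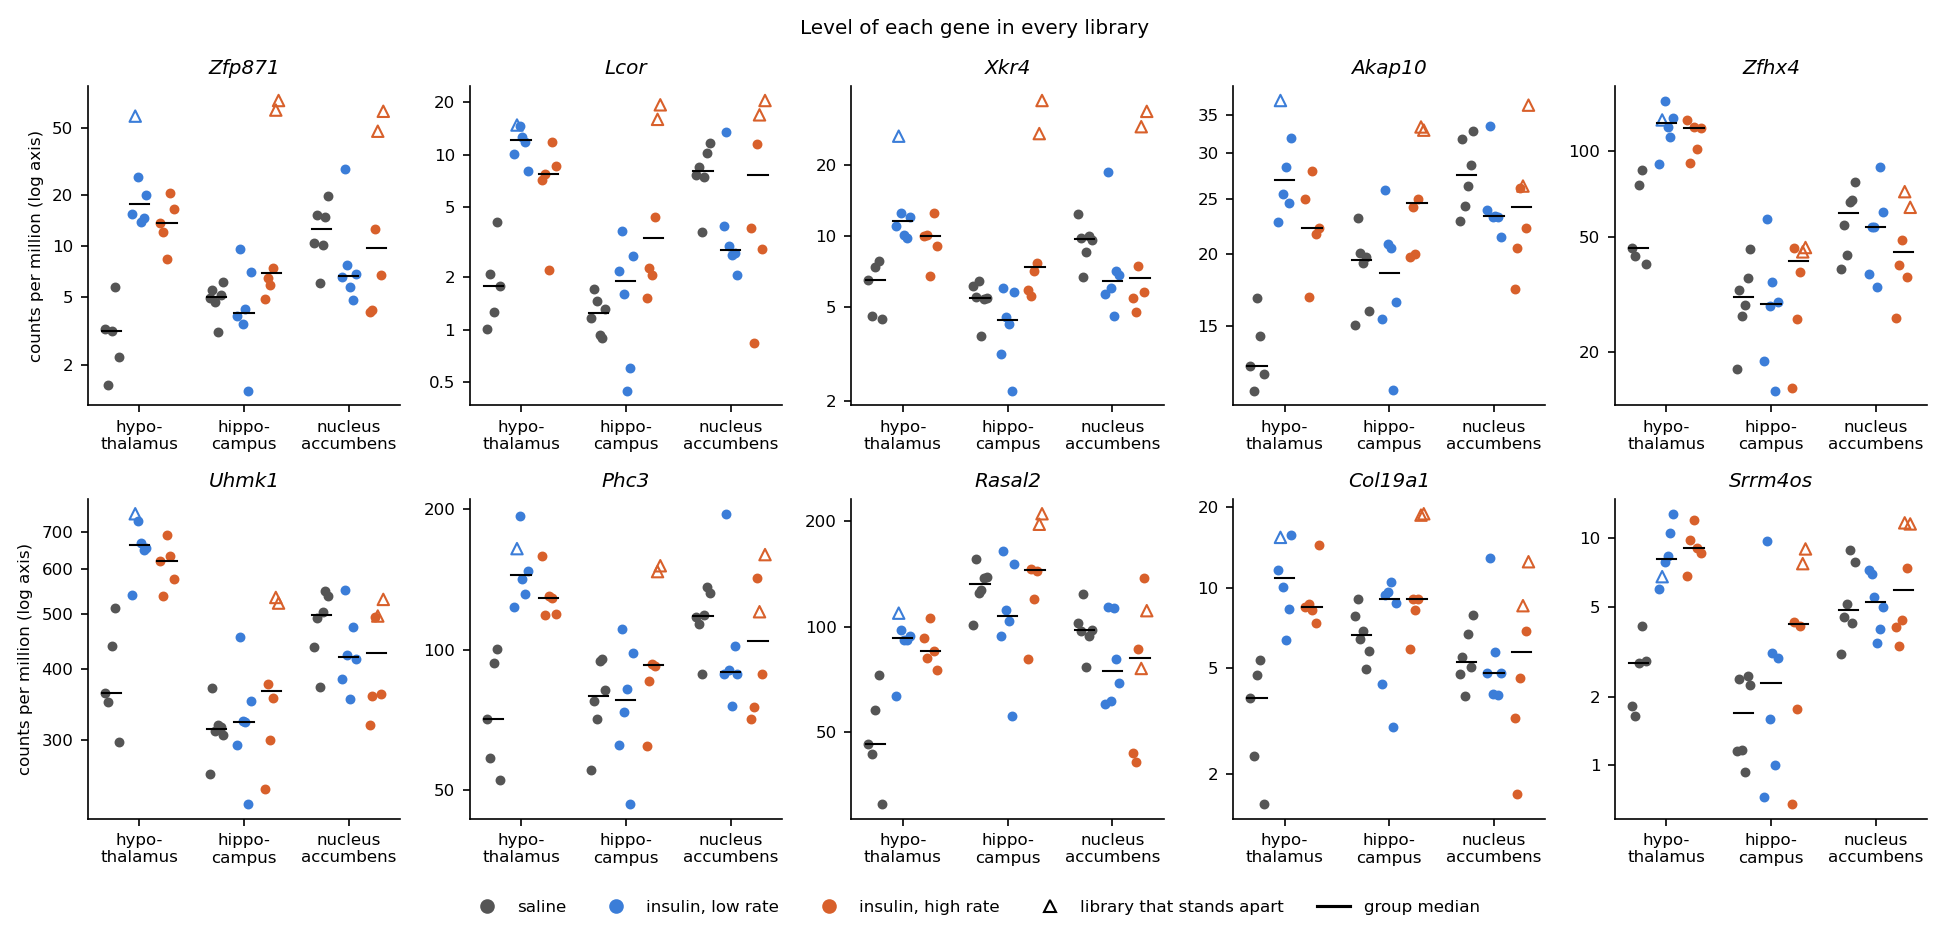
Level of each of the 10 genes in every library, in CPM on a log axis, by region and infusion; bars are group medians and triangles are the 5 libraries that stood apart. In the hypothalamus the basal points lie below nearly all insulin points, while in the other regions the infusions overlap, apart from triangles that lie above all other points for 8 genes in the hippocampus and 4 in the accumbens.

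Over the 10 genes the median log2 fold change in the hypothalamus was 1.12 at the low and 0.89 at the high rate, against -0.02 and -0.03 over all 14139 genes. Every insulin library was above every basal one for 9 of 10 genes at the low rate (1.68% of all genes) and 8 of 10 at the high rate (1.85% of all genes). This contrast chose the genes, so these counts describe the choice and nothing is read from them. High libraries were below low libraries in mean for 9 of 10, the greatest difference being -0.79 on the log2 scale (Zfp871).

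The differences were smaller, in the same direction, once the leaning libraries were set aside. Without the libraries of GC lean above 0.4, which leaves 2 basal libraries, the median log2 fold change was 0.84 at the low and 0.50 at the high rate, and all 10 genes remained above 0. Zfp871 and Lcor then had 2.60 and 2.42 at the low rate, whereas Uhmk1, Rasal2 and Zfhx4 had 0.48, 0.50 and 0.59. With the GC lean as a covariate instead, the medians were 0.98 and 0.63. Without the 5 libraries lacking a peptide they were 1.09 and 0.86, and without low replicate 2 they were 1.01 and 0.88. The serial numbers that the sample titles carry, whose meaning the labels do not give, fall into 3 ranges, and within range 3, which has 3 libraries of each infusion, all 10 genes were above basal at both rates, with median differences of 0.92 and 0.80 in log2 CPM. Range 1 gave 0.99 from 1 low and 2 basal libraries, and range 2 held no basal hypothalamic library. All these fits use libraries on which the genes were chosen. That the genes stay above 0 in a part of them follows from the choice and is not read as support.

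**Figure D2:**
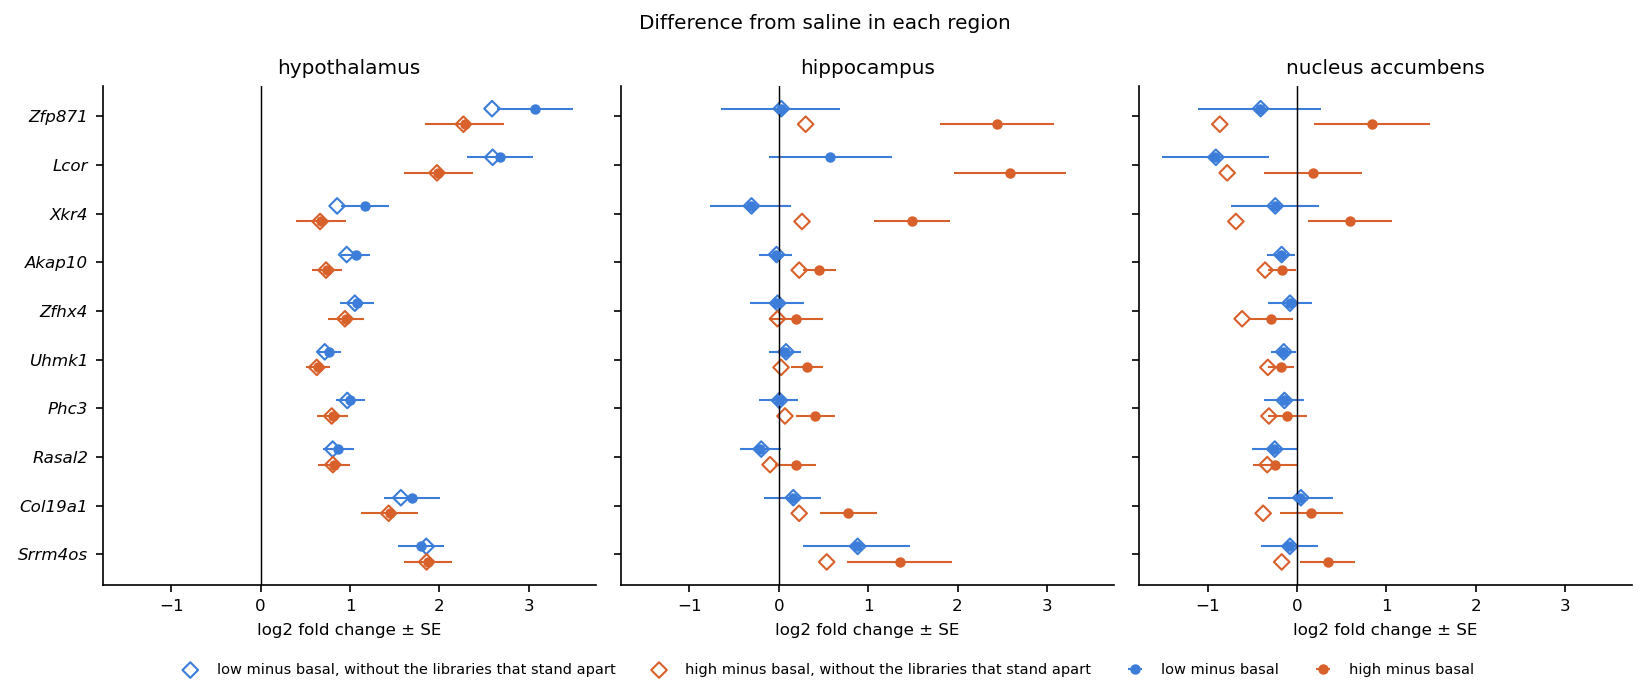
Log2 fold change against saline for each gene at the low and the high insulin rate in each region, with standard errors; diamonds give the value without the libraries that stood apart. All hypothalamic values lie above 0, and the hippocampal values of Zfp871 and Xkr4 at the high rate move from 2.44 and 1.49 to 0.30 and 0.26 at the diamonds.

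In the hippocampus, which was not used to choose the genes, 0 of the 10 passed the test at either insulin rate or between the rates by edgeR, DESeq2 or limma-voom (0% of the 13515 genes tested passed in edgeR). A gene passes the test at an adjusted p under 0.05 in edgeR's quasi-likelihood test. Lcor entered this fit only through 2 high libraries described next, so it is left out of the counts here. At the low rate the values of the other 9 scattered around 0, with 4 above it and 0 at an unadjusted p under 0.05 (4.4% of all genes higher and 1.64% lower). Srrm4os had the highest, 0.87 (SE 0.60), and Xkr4 the lowest, -0.31 (SE 0.45). At the high rate the other 9 were above 0, the middle one being Akap10 at 0.45, and 5 had an unadjusted p under 0.05, as did 1.95% of all genes on the higher and 0.659% on the lower side. The edgeR adjusted p of each of the 10 was 1.00.

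The hippocampal difference at the high rate came largely from 2 libraries. Zfp871 held 4.90, 6.54, 5.90, 7.41, 63.9 and 72.7 CPM in high replicates 1 to 6, against a basal range of 3.12 to 6.18 CPM with a median of 5.05 CPM. Lcor held 1.52, 2.26, 2.06, 4.39, 16.0 and 19.3 CPM against 0.899 to 1.71 CPM (median 1.24 CPM), and Xkr4 5.91, 5.53, 7.08, 7.69, 27.1 and 37.5 CPM against 3.74 to 6.42 CPM (median 5.46 CPM). High replicates 5 and 6 exceeded all 16 other hippocampal libraries for 8 of the 10 genes, all but Zfhx4 and Srrm4os. The log2 fold changes of these 3 genes were 2.44 (SE 0.64) for Zfp871, 2.59 (SE 0.62) for Lcor and 1.49 (SE 0.43) for Xkr4. Without replicates 5 and 6 they were 0.30 for Zfp871 and 0.26 for Xkr4, while Lcor no longer passed the filter on low counts and averaged 2.56 ± 1.26 CPM (SD, n = 4) against 1.25 ± 0.31 CPM (SD, n = 6) under saline. Over the 9 genes still tested the median was 0.23, with 7 above 0 and a range of -0.10 to 0.54. Leaving out libraries picked by Lnpep lowers these values by construction. Markers of other cells were also at other levels in this comparison: 7 of 7 oligodendrocyte markers were above basal in mean (median 0.58), summing to 2598 to 4829 CPM in basal and 5110 to 7235 CPM in high libraries. The choroid plexus markers Ttr, Folr1 and Kl were above basal in 3 of 3 (median 1.61), summing to 58.4 to 1297 and 55.8 to 2629 CPM. At the low rate the same markers were above basal in 7 of 7 (median 0.96) and 3 of 3 (median 2.56). High replicates 5 and 6 held 5301 and 6052 CPM of the oligodendrocyte markers and 2110 and 55.8 CPM of the choroid plexus markers. None of these markers passed the test at either rate, and their part in the result was not tested.

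The other 7 genes had smaller hippocampal values at the high rate. Akap10, the kinase anchor, averaged 25.9 ± 5.99 CPM at the high rate and 18.9 ± 2.95 CPM under saline (SD, n = 6 each), with a log2 fold change of 0.45 (SE 0.19). Col19a1 averaged 11.7 ± 5.67 against 6.82 ± 1.47 CPM, and Srrm4os 4.59 ± 3.24 against 1.73 ± 0.71 CPM (SD, n = 6 each). Uhmk1, Phc3, Zfhx4 and Rasal2 had log2 fold changes between 0.19 and 0.41. Rasal2 and Zfhx4 were just below 0 without replicates 5 and 6, at -0.10 and -0.01.

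In the nucleus accumbens 0 of the 10 genes passed the test in any comparison of infusions by edgeR, DESeq2 or limma-voom (0% of the 13769 genes tested passed in edgeR). At the low rate only Col19a1 was above 0, at 0.04 (SE 0.36), and the median was -0.16, with 0 at an unadjusted p under 0.05 (0.85% of all genes higher and 0.574% lower). Lcor was lowest, at -0.92 (SE 0.60): its basal libraries held 3.64 to 11.7 CPM (median 8.10 CPM) and its low libraries 2.05 to 13.5 CPM (median 2.87 CPM). Of its 6 low libraries, 5 held 3.94 CPM or less, and low replicate 2 held the 13.5 CPM. At the high rate 5 of 10 were above 0 and the median was 0.03, with 0 at an unadjusted p under 0.05 (1.55% of all genes higher and 0.813% lower).

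Here too 2 high libraries differed from the rest of their group. Zfp871 held 4.07, 4.21, 12.7, 47.9, 6.78 and 62.8 CPM in high replicates 1 to 6, against 6.06 to 19.8 CPM (median 12.7 CPM) under saline. Xkr4 held 5.43, 4.77, 7.44, 29.0, 5.78 and 33.7 CPM against 6.67 to 12.4 CPM (median 9.69 CPM). Replicates 4 and 6 were above all 16 other accumbens libraries for Zfp871, Lcor, Xkr4 and Srrm4os. Without them 0 of the 10 were above 0 at the high rate, with a median of -0.37 and a range of -0.86 (Zfp871) to -0.17 (Srrm4os). The sign of Zfp871, Lcor, Xkr4, Col19a1 and Srrm4os thus turned. Leaving out libraries picked by a gene that follows the set lowers these values by construction, so this turn is not read as a result. The summed endothelial markers Cldn5, Pecam1, Flt1 and Slco1c1 were 86.5 and 87.9 CPM in these 2 libraries and 149 to 195 CPM in the 16 others. They were 148 and 101 CPM in hippocampal high replicates 5 and 6 against 143 to 202 CPM in the others, and 209 CPM in hypothalamic low replicate 2, within the 118 to 231 CPM of the others. The part of these markers in the result was not tested.

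The difference between the accumbens and hippocampal responses was tested directly in a fit of all 52 libraries. This fit treats libraries of different regions as independent, since the labels do not say which came from 1 mouse. Over the 10 genes at the high rate, the accumbens effect minus the hippocampal one ran from -2.40 (Lcor, SE 0.80, edgeR unadjusted p = 0.00426) to -0.43 (Rasal2, SE 0.33). It was -1.60 (SE 0.85) for Zfp871 and -0.61 (SE 0.24) for Akap10. The edgeR adjusted p was 1.00 for each, and 0 of 14985 genes (0%) passed the test at either rate, with 790 at the low and 357 at the high rate at an unadjusted p under 0.05. The hippocampal effects at the high rate came largely from replicates 5 and 6. These held 16.0 and 19.3 CPM of Lcor, against at most 4.39 CPM in the other hippocampal libraries. The accumbens effects include high replicates 4 and 6, which also stood apart. No fit of this difference without these libraries is given. The 3 regions each had their own saline libraries. No difference of a hypothalamic response from the others was tested, since the hypothalamic values chose the genes.

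Under saline some of the 10 genes differed in level between the nucleus accumbens and the hippocampus. Any pairing of these libraries by mouse is unknown and left out of this test too. Of the 10, 5 were higher in the nucleus accumbens than in the hippocampus (14.7% of all genes were called higher there and 14.5% lower). Lcor held 8.06 ± 2.72 CPM in the accumbens and 1.32 ± 0.34 CPM in the hippocampus (SD, n = 6 each), a log2 difference of 2.57 (SE 0.62, edgeR adjusted p = 0.000953). Srrm4os followed with 5.53 ± 2.23 against 1.83 ± 0.76 CPM (SD, n = 6 each), a log2 difference of 1.51 (SE 0.46, edgeR adjusted p = 0.00825). Zfhx4 was higher by 0.78 (SE 0.27, edgeR adjusted p = 0.0214), Uhmk1 by 0.51 (SE 0.15, edgeR adjusted p = 0.00861) and Akap10 by 0.45 (SE 0.17, edgeR adjusted p = 0.0385). The other 5 did not pass: the log2 differences were 1.25 (SE 0.64) for Zfp871, 0.70 (SE 0.44) for Xkr4, 0.46 (SE 0.22) for Phc3, -0.52 (SE 0.23) for Rasal2 and -0.38 (SE 0.34) for Col19a1. The count was 3 when hippocampal basal replicate 1 or accumbens basal replicate 6 was left out. It was 8 when only these 12 libraries were fitted, with Rasal2 then called lower (-0.51, edgeR adjusted p = 0.00357). The share of all genes called in these refits is not given, so their counts are not read beside 14.7% and 14.5%.

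Set beside these levels, the hypothalamic saline libraries were lowest of the 3 regions in mean for 5 genes. Genes chosen for a rise from these saline libraries tend to be low in them, so this order describes the choice as well. Zfp871 averaged 3.03 ± 1.54 CPM (SD, n = 5) there, 5.22 ± 1.09 CPM in the hippocampus and 12.6 ± 4.76 CPM in the accumbens. Akap10 averaged 13.0, 20.0 and 27.3 CPM in the same order of regions, Phc3 71.8, 83.9 and 116 CPM, Rasal2 48.0, 138 and 96.9 CPM, and Col19a1 3.40, 7.24 and 5.54 CPM. For Phc3 the hypothalamic and hippocampal levels lay within their SDs of 20.3 and 16.0 CPM. Lcor, Xkr4, Uhmk1, Zfhx4 and Srrm4os were lowest in the hippocampus instead, with hypothalamic means of 1.95, 5.86, 376, 55.6 and 2.54 CPM. Of these, Xkr4, Uhmk1, Lcor and Srrm4os lay within their spread in these 2 regions, Uhmk1 at 333 ± 38.4 CPM in the hippocampus and 376 ± 81.4 CPM in the hypothalamus (SD). Zfhx4 at 57.2 ± 15.0 CPM in the accumbens and 55.6 ± 20.3 CPM in the hypothalamus also lay within its spread.

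Corrected for the length of exonic sequence, the order of the genes changed. In CPM per kilobase of merged exons, averaged over the hypothalamic libraries, Uhmk1 had 69.6, Phc3 6.91, Zfhx4 6.28 and Rasal2 5.64, while the median gene had 6.05. Akap10 had 3.41, Srrm4os 1.91, Xkr4 1.65, Zfp871 1.33, Col19a1 1.20 and Lcor 0.95. On this scale Phc3 and Zfhx4 were close to the middle, at the 54.0th and 51.1th percentile, and only Uhmk1 stayed high, at the 96.7th.

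The 10 genes have long transcripts that are poor in GC, which the choice did not use directly but may have favoured through the libraries. In the hypothalamus, GC lean was above 0.4 in 3 of 5 basal and 0 insulin libraries. The counts below therefore describe the choice as well. In GENCODE M21 on GRCm38, the mean transcript GC of the 10 had a median of 46.6% (42.1% to 50.6%) against 50.6% over the tested genes, with 9 of 10 below. The mean transcript length had a median of 3970 bases (1961 to 8276) against 1880, with 10 of 10 above. For the longest transcript of each gene the medians were 6652.5 bases against 3477.5. The 3′ untranslated region was 2984 bases in the median of the 9 coding genes against 1318, and its GC content 40.5% against 44.5%, lower in 9 of 9.

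Individual genes show the extremes. Zfp871, at chromosome 17, 32765496 to 32788287 on the minus strand, has the lowest transcript GC, 42.1%, and a 3′ untranslated region of 8859 bases that is longer than those of 99.4% of tested genes. Zfhx4, at chromosome 3, 5218526 to 5415857 on the plus strand, has the longest transcripts, 8276 bases in the mean. Xkr4, at chromosome 1, 3205901 to 3671498 on the minus strand, spans 465598 bases, and its introns hold other annotated transcripts on both strands. Lcor lies at chromosome 19, 41482637 to 41562261 on the plus strand, with a transcript GC of 43.1%. Col19a1, at chromosome 1, 24261890 to 24587472 on the minus strand, is the 1 gene whose transcript GC, 50.6%, is not below the median. Srrm4os, at chromosome 5, 116438720 to 116465487 on the plus strand, is the shortest at 1961 bases. Exons of Uhmk1 and Rasal2 overlap a transcript on the opposite strand (4930500M09Rik and 2810025M15Rik).

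**Figure D3:**
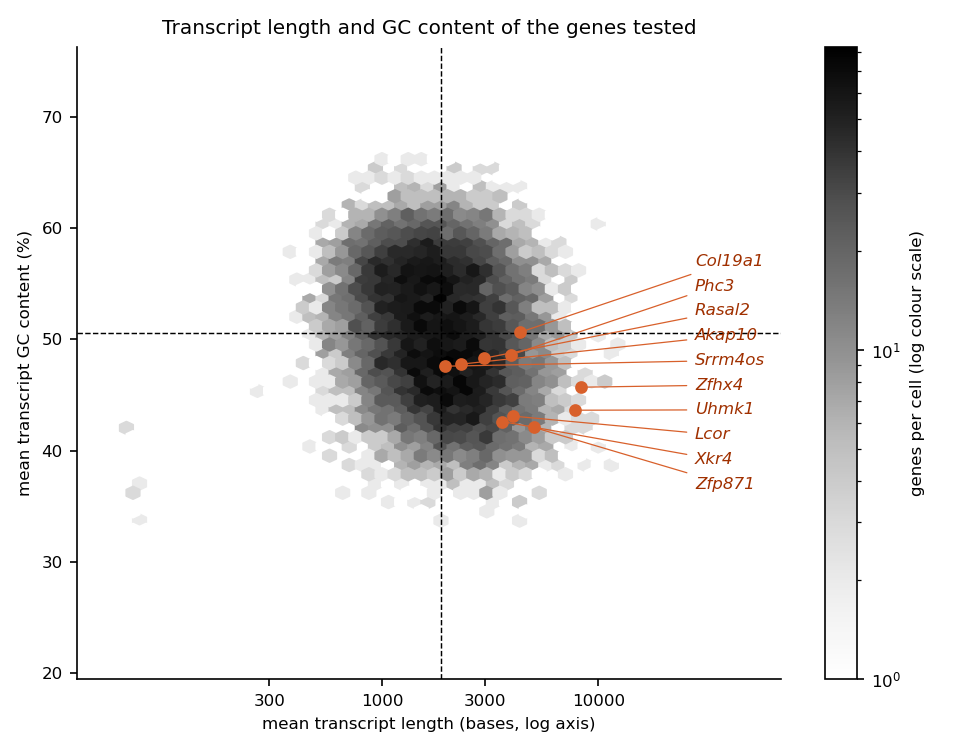
Mean transcript length (log axis, bases) against mean transcript GC content (percent) for genes tested in the hypothalamus, shaded by number of genes, with the 10 genes in orange and dashed lines at the medians of all genes. All 10 lie above the median length of 1880 bases and 9 lie below the median GC of 50.6%. The choice of genes may favour such transcripts, so these counts describe it as well.

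Because of these properties the levels were tested against the GC lean of each library in the regions not used for the choice, with the infusions in the model. The lean is itself built from transcript GC, so GC-poor genes tend to fall as it rises. The shares over all genes include GC-rich ones, so the counts in both regions are not read as a result about the 10. In the hippocampus 8 of the 10 fell with a greater lean (23.2% of all genes were called lower and 27.5% higher). Lcor is counted among these 8, but it was in this fit only through the 2 libraries that stood apart, so its call is not read. Srrm4os changed by -0.996 log2 units per SD of lean (SE 0.16, edgeR adjusted p = 2.91e-05) and Zfhx4 by -0.54 (SE 0.07, edgeR adjusted p = 2.15e-06). The slope of Lcor was -0.67 (SE 0.26). Its 2 apart libraries held 16.0 and 19.3 CPM at leans of -0.28 and -0.39, against at most 4.39 CPM in the 16 others. Rasal2, Col19a1, Phc3, Uhmk1 and Akap10 had slopes between -0.34 and -0.24. The 2 that did not pass were Zfp871 at -0.71 (SE 0.31) and Xkr4 at -0.37 (SE 0.19).

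In the nucleus accumbens 4 of the 10 fell with a greater lean (11.6% of all genes were called lower and 10.9% higher). They were Zfhx4 at -0.32 (SE 0.09), Phc3 at -0.26 (SE 0.08), Akap10 at -0.19 (SE 0.05) and Uhmk1 at -0.17 (SE 0.05). The slopes of the other 6 were also below 0, from -0.69 for Zfp871 to -0.16 for Srrm4os. This accumbens count was 0 without high replicate 1 or with the serial number range in the model, and 2 without high replicate 6 or without both libraries that stood apart. Against the like measure for transcript length, where a positive lean means more reads of long transcripts, 7 of 10 rose in the hippocampus (22% of all genes rose and 26.2% fell) and 3 of 10, Phc3, Rasal2 and Col19a1, in the accumbens (8.25% of all genes rose and 6.35% fell). Long transcripts tend to rise with this lean by its definition, so these counts are not read as a result about the 10 either.

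In the hypothalamus the lean ran with the infusion. Its median was 0.41 in basal, -0.25 in low and -0.11 in high libraries, whereas in the hippocampus it was -0.16, 0.04 and -0.22 and in the accumbens -0.06, 0.01 and -0.02. Basal replicates 1, 2 and 5 of the hypothalamus had leans of 0.61, 0.69 and 0.41, and the mean deviation of the 10 genes in them was -0.99, -1.19 and -1.24 in log2 CPM. Basal replicates 3 and 4, with leans of -0.24 and -0.15, had -0.67 and -0.32, below each of the 11 insulin libraries, of which the lowest had 0.11. These hypothalamic values chose the genes, so the order of basal and insulin libraries describes the choice. The part of the lean in it was not tested.

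**Figure D4:**
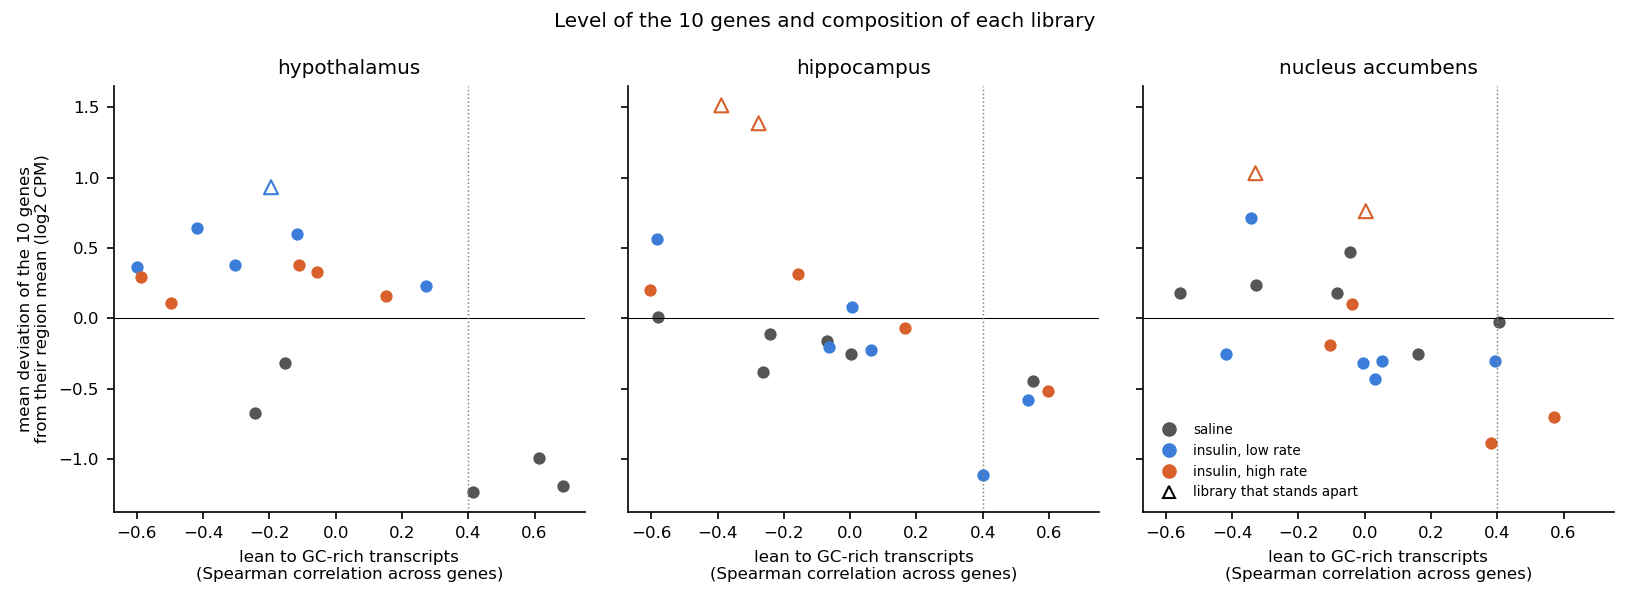
Mean deviation of the 10 genes from their regional mean (log2 CPM) against the GC lean of each library, 1 panel per region, with a dotted line at a lean of 0.4. In the hypothalamus all 5 basal libraries lie below 0 and all 11 insulin libraries above it, and the 3 basal libraries past the dotted line are the lowest. The hypothalamic values chose the genes, so the place of basal below insulin describes the choice.

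The 10 genes moved together from library to library in the other regions. Over the 36 hippocampal and accumbens libraries, each gene centred on its regional mean, the correlation of a gene with the mean of the other 9 ran from 0.64 (Zfhx4) to 0.94 (Zfp871). These correlations are descriptions over libraries that share composition, and without the 4 libraries that stood apart they ran from 0.59 (Srrm4os) to 0.89 (Zfp871). Within the accumbens alone the lowest were 0.46 (Rasal2) and 0.54 (Zfhx4), and 0.40 (Srrm4os) without its apart libraries. Within the hippocampus alone the lowest was 0.71 (Zfhx4), and 0.60 (Lcor) without its apart libraries. The genes outside the set whose profile was closest to the mean of the 10 were Usp9x (a deubiquitinase, r = 0.944), Gm38020 (0.944), Stxbp5l (0.935), Myo5a (a myosin motor, 0.922), Scn2a (a sodium channel, 0.921), Birc6 (0.920), Lnpep (0.916) and Pclo (a presynaptic scaffold, 0.914), over 36 libraries. Their transcript GC ran from 39.5% (Gm38020) to 47.3% (Myo5a). Of 13116 genes tested in both regions, 10.3% had r of at least 0.5 with the mean of the 10 and 1.25% of at least 0.8. Without the libraries that stood apart, 15.6% had r of at least 0.5.

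Partners and paralogs of the 10 genes, in 10 lists chosen by known relation, passed the test in 3 cases. Of 87 listed genes tested in the hypothalamus, 1 rose and 2 fell at the low rate, beside 3.59% and 1.78% of all genes, and 0 passed at the high rate by edgeR (0.177% and 0.00707% of all genes did). At an unadjusted p under 0.05 there were 33 at the low rate (14.4% of all genes higher and 15.5% lower) and 25 at the high rate (11.1% higher and 13% lower). DESeq2 called 16 and 3, but the share of all genes it called is not given, so these 2 counts are not read. The median of the 87 was -0.02 at the low and 0.02 at the high rate. Akap6, another protein kinase A anchor, rose by 0.66 (SE 0.17, edgeR adjusted p = 0.0379), from 214 to 338 CPM in mean. Ring1, the ubiquitin ligase subunit of Polycomb repressive complex 1, fell by 0.71 (SE 0.19, edgeR adjusted p = 0.0394), and the collagen gene Col9a2 fell by 1.02 (SE 0.22, edgeR adjusted p = 0.0202). None of these 3 calls was kept with the GC lean as a covariate, without the leaning libraries or without low replicate 2, where 0 listed genes passed. In the hippocampus 0 of 85 and in the accumbens 0 of 86 listed genes passed edgeR or DESeq2 at either rate, with at most 2 at an unadjusted p under 0.05.

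In the lists without a call, the most abundant partners gave these log2 fold changes at the low rate. The Lcor partners Hdac3 and Ctbp1 had -0.12 (SE 0.12) and -0.34 (SE 0.15), and the zinc finger corepressor Trim28 had -0.26 (SE 0.12) beside 0.50 (SE 0.17) for the zinc finger gene Zfp763. The 10 RasGAP genes had a median of 0.14, with 6 above 0, and the homeodomain genes Zfhx3 and Zfhx2 had 0.36 (SE 0.17) and -0.21 (SE 0.09). Xkr6 and Xkr8, the paralogs of Xkr4, had 0.09 (SE 0.24) and -0.17 (SE 0.16). The Uhmk1 list genes Stmn2 and Pam had -0.02 (SE 0.10) and -0.01 (SE 0.15), and the splicing genes Srrm2 and Ptbp2 had 0.10 (SE 0.17) and 0.48 (SE 0.21).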

How the data were processed

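Per the submitters' processing notes, the authors worked with STAR, featureCounts and build GRCm38.p4; for versions, counting options and strand setting the sources used here are silent. Per the labels, libraries were stranded and multiplexed. The deposited values are raw whole-number counts per Ensembl gene. Symbols came from GENCODE M21, which named 45229 of the 46071 genes and all 10 members.

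The 10 genes, the partner lists and the tests were chosen with earlier results of these data known. Each region was fitted with edgeR 4.0.16 (TMM scaling, filterByExpr, robust quasi-likelihood test, Benjamini-Hochberg adjustment over all tested genes, threshold 0.05) on R 4.3.3, with the 3 infusions in 1 fit, and 1 fit of 52 libraries served comparisons between regions. In that fit a pairing of regions by mouse could not be modelled, as the labels do not give it. CPM uses TMM-scaled totals. The median total count was 4654642, and a gene at 1 CPM therefore rests on few reads. Scripts were tested on simulated data. Alternatives included DESeq2 1.42.0 and limma 3.58.1. Named genes are the 10, Srrm4, the 8 closest profiles and, per list, the called genes or otherwise the 2 most abundant; the RasGAP list is given by its median, since 1 of its genes is not reported here. No 2 libraries of a group agreed within sampling noise (125 pairs).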

Additional observations from a re-analysis of the deposited data

Results flagged for a closer look

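A library was singled out where its gap to the nearest other of its group, divided by the range of the group, passed the 95% limit of Dixon's test. This held for 11 of the 90 groups of gene, region and infusion, and in each case it was the highest library. The limit gives about 1 in 20 for independent groups of normally spread values. Here 1 library can be flagged for several genes that move together, so the count is not read as an excess over chance.

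In the nucleus accumbens at the low rate, replicate 2 was such a library for 6 genes. It held 28.7 CPM of Zfp871, 13.5 CPM of Lcor, 18.6 CPM of Xkr4, 33.4 CPM of Akap10, 196 CPM of Phc3 and 12.9 CPM of Col19a1. In the hypothalamus at the low rate, replicate 2 held 58.8 CPM of Zfp871 and 26.5 CPM of Xkr4, and it is 1 of the 5 libraries that stood apart by Lnpep. At the high rate, hypothalamic replicate 5 held 14.5 CPM of Col19a1 and replicate 1 held 158 CPM of Phc3. In the hippocampus at the low rate, replicate 2 held 9.68 CPM of Srrm4os. Hippocampal high replicates 5 and 6, high as a pair, are not found by this measure.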

How the results depend on the processing

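The median hypothalamic log2 fold change of the 10 genes at the low rate (1.12) was 0.84 without the GC-leaning libraries and 1.01 to 1.25 when each library was left out in turn. At the high rate (0.89) it was 0.69 with the serial number range of the titles as a term, 0.71 with runs of neighbouring serial numbers as a block, 0.63 with the GC lean and 0.70 with the length lean as a covariate, 0.50 without the GC-leaning libraries, and 0.78 to 1.05 leaving out each library. The 3 partner genes called at the low rate became 19 at a threshold of 0.1, 16 by DESeq2, 6 by limma-voom and 5 with all libraries in 1 fit. They became 1 with the length lean and 0 with the number range, the number run or the GC lean, in a fit of the 2 groups only, or without the GC-leaning, the apart or the peptide-lacking libraries. Leaving out each library gave 0 to 21 at the low rate and 0 to 13 at the high rate, where DESeq2 called 3. The 5 genes higher in the accumbens than in the hippocampus became 3 with no filter on low counts, 9 with the 2 groups only (8 higher, and Rasal2 lower) and 3 to 5 leaving out each library. The 4 accumbens genes called on GC lean became 0 with the number range and 2 without the apart libraries. They became 0 to 6 leaving out each library (0 without high replicate 1, 2 without high replicate 6). The 8 hippocampal ones, with Lcor counted, became 6 to 10 leaving out each library. The share of all genes called under these settings is not given, so the counts of called genes show only their dependence on the setting. The median transcript length of 3970 bases was 6652.5 for the longest transcript. No called value changed sign, and the cause of these changes was not tested. Single log2 fold changes had the other sign in 0 of 600 refitted values of the hypothalamus, 45 of 615 of the hippocampus and 22 of 620 of the accumbens. The hypothalamic count follows from the choice of genes that rise there, so the 3 counts are not compared. The removal of libraries by Lnpep was chosen after seeing the data.

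Basal levels of Zfp871, Lcor, Col19a1 and Srrm4os rest on 5 to 30 counts in a hypothalamic library, which limits their fold changes. Without the libraries that stood apart Lcor failed the count filter in the hippocampus, so it has no value there.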
